A study of Homo sapiens with 6 samples.

Results

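The genes described here encode proteins of base excision repair, nucleotide excision repair and mismatch repair, together with MGMT, which reverses alkylation directly. The set was a fixed list of 40 gene symbols, and all 40 were found, each in 1 row of the 16934 genes in the count table. They were measured by RNA sequencing of A375, an established human melanoma cell line. Cells edited with CRISPR-Cas9 (the Alt-R system) and an sgRNA against POLK, the gene for the error-prone DNA polymerase kappa, were compared with cells that went through the same editing with a non-targeting control sgRNA. Each group held 3 libraries, with total counts of 46559658 to 56891905 for the POLK sgRNA and 42852645 to 55003324 for the control sgRNA. Separate cultures are not mentioned in the labels, and the column names share 1 stem within each group. The p-values below therefore set the group difference only against library-to-library spread, and that spread may be technical. Each group may be 1 edited population, and then population differences and editing effects cannot be told apart.

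These pathways remove different kinds of damage from DNA. In base excision repair a DNA glycosylase cuts out a single wrong base, an endonuclease opens the strand at the empty site, and a polymerase and a ligase fill and seal it. Nucleotide excision repair, best known for ultraviolet lesions and so of particular interest in melanocytes and the tumours that arise from them, cuts out a short stretch of strand around bulky damage. Mismatch repair corrects errors left by replication.

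Of the melanocyte lineage markers, SOX10 had 1155 CPM (counts per 1000000, on scaled library sizes) with the POLK sgRNA and 1060 CPM with the control sgRNA. MITF had 32.9 CPM with the POLK sgRNA and 28.3 CPM with the control sgRNA. Of 11 such markers 6 reached a mean of 1 CPM over all libraries, and they did not all lie on one side. S100A1 had 58.3 CPM with the POLK sgRNA and 19.2 CPM with the control sgRNA, and TFAP2A had 11.1 CPM with the POLK sgRNA and 14.8 CPM with the control sgRNA. The pigment genes were low in both groups: TYR had 0 CPM with the POLK sgRNA and 0.148 CPM with the control sgRNA, and TYRP1, DCT, MLANA and PMEL had means under 1 CPM. Of these PMEL was higher and the other 4 were lower in the POLK sgRNA mean. Leukocyte markers summed to 58.1 to 60.3 CPM with the POLK sgRNA and 17.64 to 17.996 CPM with the control sgRNA, with 2 of the 6 listed genes, CD68 and LYZ, at a mean of 1 CPM or more and with PTPRC and CD3E under 0.1 CPM in both groups. Epithelial markers summed to 149 to 155 CPM with the POLK sgRNA and 100.2 to 102 CPM with the control sgRNA (2 of 5 at 1 CPM, CDH1 under 0.1 CPM), and fibroblast markers to 26.9 to 27.1 CPM with the POLK sgRNA and 15.49 to 16.01 CPM with the control sgRNA (3 of 6, COL3A1 under 0.1 CPM). Endothelial markers summed to 2.50 to 2.80 CPM with the POLK sgRNA and 1.59 to 2.03 CPM with the control sgRNA. In these lists CD14, CD3E, KRT19, CDH1, COL1A2 and CDH5, all under 1 CPM, were lower in the POLK sgRNA mean. The part of these markers in the results was not tested. POLK itself had 19.2, 17.2 and 18.1 CPM in the POLK sgRNA libraries, against 23.4, 24.0 and 22.4 CPM in the control sgRNA libraries. The groups did not overlap (log2 fold change −0.36, SE 0.05, edgeR adjusted p = 7.9e-08), with the mean at 78.0% of the control mean.

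All 40 repair genes had enough counts for a test. With the POLK sgRNA 13 were higher, 6 were lower and 21 did not pass, which is 47.5% called against 64.3% of the 13930 genes tested (adjusted p under 0.05 by the quasi-likelihood test of edgeR). The shares in each direction over all genes were 32.8% higher and 31.6% lower. The repair genes' median log2 fold change was 0.04, and that of all genes was 0.0083. Their median absolute log2 fold change was 0.10, and that of all genes was 0.18. Most called members differed little: 13 of the 19 had an absolute log2 fold change under 0.32. In a test against a minimum fold (edgeR's glmTreat) 4 members were higher, SMUG1, TDG, UNG and PARP1, where 11.9% of all genes were. In that test 1 member was lower, ERCC3, where 8.79% of all genes were. The groups did not overlap in 23 members, against 67.7% of all genes. A bulk level cannot tell apart a change in every cell from a change in the share of cells that carry the transcript.

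**Figure D1:**
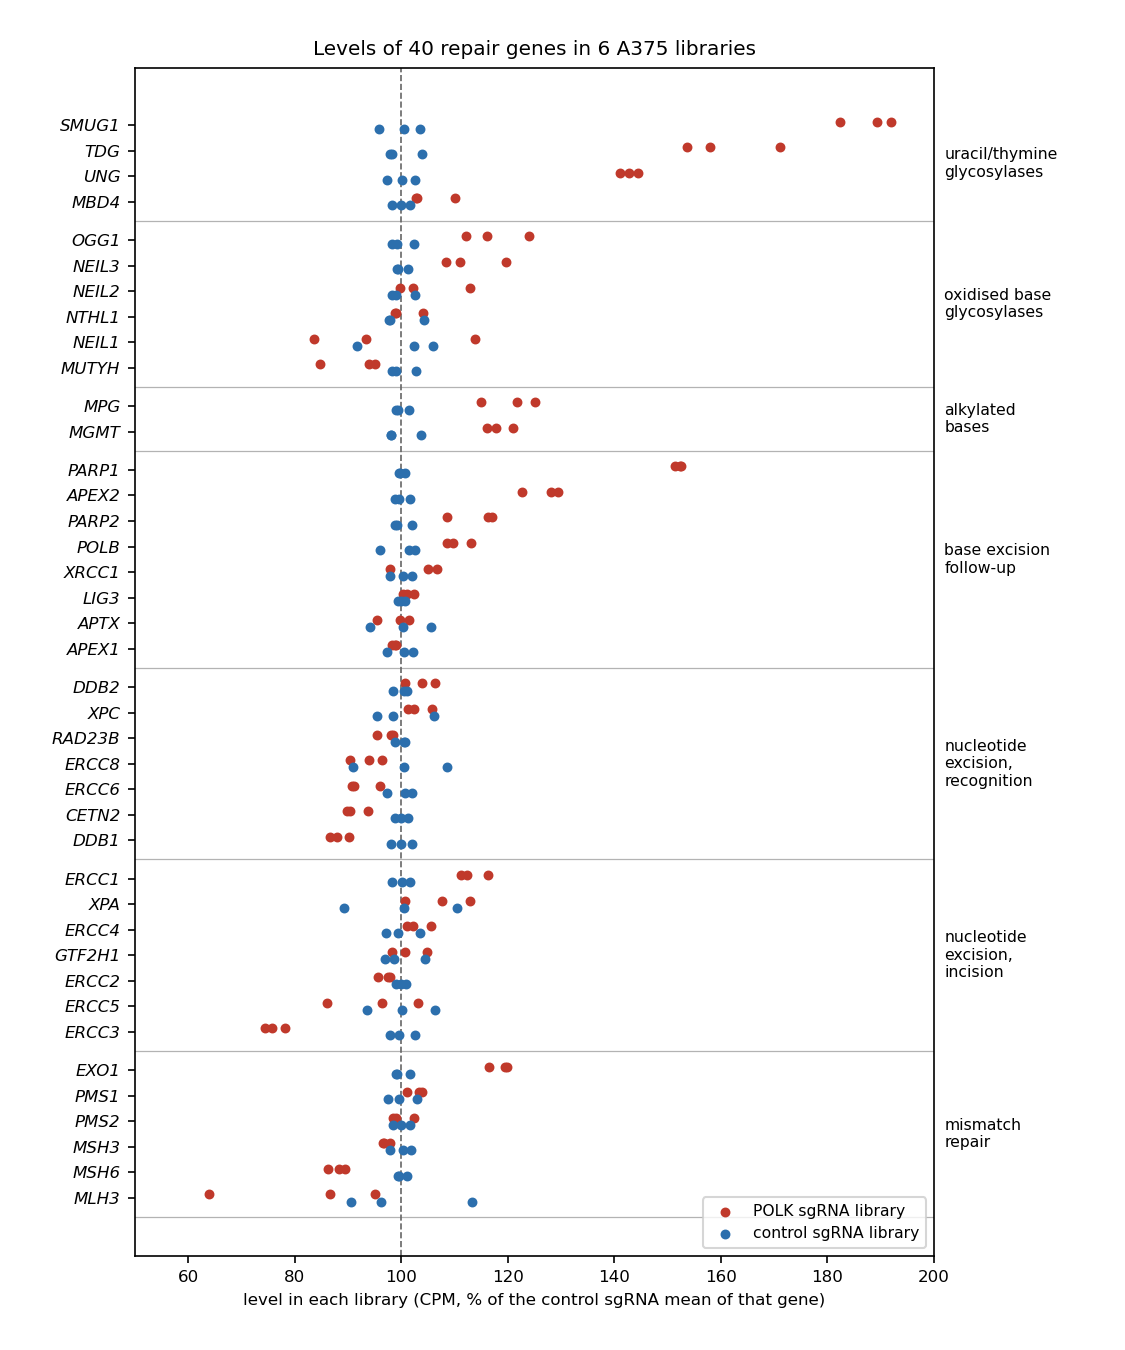
Level of each of 40 repair genes in every library (x axis, CPM as a percentage of the gene's mean in the control sgRNA libraries), grouped by repair step; red points are the 3 POLK sgRNA libraries and blue points the 3 control sgRNA libraries. SMUG1, TDG, UNG and PARP1 stand furthest to the right of their control points, and among the called genes ERCC3 stands furthest to the left, at 68.3 ± 1.73 against 89.7 ± 2.07 CPM (SD, n = 3 each).

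The bases upstream of 3 genes are shown because UNG and TDG rose together on chromosome 12 and PARP1 had the largest rise among the members on other chromosomes. The sequences are those of RefSeq (GRCh38.p14), on the strand of the gene, and end before the annotated start in both RefSeq and GENCODE 29. They cover chr12:109097347-109097573 (plus strand) for UNG, chr12:103965622-103965803 (plus strand) for TDG and chr1:226408094-226408343 (minus strand) for PARP1. Capitals mark a GC box (GGGCGG) or a CCAAT box (CCAAT), read on either strand.
UNG: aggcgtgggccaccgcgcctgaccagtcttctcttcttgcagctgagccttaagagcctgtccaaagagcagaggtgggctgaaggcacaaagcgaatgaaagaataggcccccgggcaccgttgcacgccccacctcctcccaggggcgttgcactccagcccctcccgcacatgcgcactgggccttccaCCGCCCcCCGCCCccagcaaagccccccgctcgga
TDG: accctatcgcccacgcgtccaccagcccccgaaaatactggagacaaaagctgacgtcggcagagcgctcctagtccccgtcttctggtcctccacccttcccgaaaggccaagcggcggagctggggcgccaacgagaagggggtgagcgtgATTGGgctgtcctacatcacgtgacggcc
PARP1: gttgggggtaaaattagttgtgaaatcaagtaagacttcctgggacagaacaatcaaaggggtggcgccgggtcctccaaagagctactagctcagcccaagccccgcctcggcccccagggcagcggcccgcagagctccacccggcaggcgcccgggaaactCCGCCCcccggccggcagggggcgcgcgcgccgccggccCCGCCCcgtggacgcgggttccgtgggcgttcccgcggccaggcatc

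The stretch of UNG holds 2 GC boxes, on the opposite strand and 1 base apart, and that of PARP1 also holds 2. The stretch of TDG holds 1 CCAAT box on the opposite strand. No match overlapped another in these stretches. RefSeq promoters were found for 37 of the 40 members (not for SMUG1, POLB and NEIL2), and the 250 bases before each start were searched on both strands. A GC box was present in 26 of the 37, or 70.3%, against 66.4% of the 10842 promoters found for genes tested and 42.3% of all 27305 promoters. A CCAAT box was present in 17 (45.9%, against 34.9% of tested genes and 33% of all promoters). The NRF1 motif was present in 8 (21.6%, against 9.91% of tested genes and 5.53% of all promoters), namely ERCC2, LIG3, MLH3, MPG, NEIL3, PARP2, XPA and XRCC1. Of these 8, MPG, NEIL3 and PARP2 rose with the POLK sgRNA and the other 5 did not pass. The ETS pattern CCGGAAGT was present in 4 members (10.8%, against 6.71% of tested genes and 3.64% of all promoters). The E2F patterns (TTTGGCGC, TTTCCCGC, TTTCGCGC or TTTGCCGC) were present in 3, MSH3, PMS2 and XPC (8.11%, against 4.32% of tested genes and 2.79% of all promoters). The CRE palindrome TGACGTCA was present in 3, EXO1, PARP2 and PMS2 (8.11%, against 2.74% of tested genes and 1.77% of all promoters). The median number of CpG pairs in the window was 23 for members, 21 for tested genes and 11 for all promoters. A match of letters is a description of the sequence and not a site of binding.

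The glycosylases that remove uracil or thymine had the largest median log2 fold change of the 7 repair steps, 0.60. These enzymes deal with deaminated cytosine and deaminated methylcytosine, and 3 of the 4 were higher with the POLK sgRNA. Of all genes tested 32.8% were higher. SMUG1 (chromosome 12, 54121277 to 54189008, minus strand, GRCh38), which removes uracil and oxidised derivatives of uracil and thymine, had 58.3, 56.2 and 59.1 CPM with the POLK sgRNA, against 29.5, 31.0 and 31.9 CPM with the control sgRNA. Every POLK sgRNA library lay far above every control library, and the log2 fold change was 0.91 (SE 0.04, edgeR adjusted p = 3.9e-21). TDG (chromosome 12, 103965804 to 103988874, plus strand), which removes thymine from G:T mispairs and the oxidised methylcytosines of active demethylation, had 58.1, 53.7 and 52.2 CPM with the POLK sgRNA, against 35.3, 33.4 and 33.3 CPM with the control sgRNA. The groups stood apart again, although the POLK sgRNA libraries were less alike for TDG than for SMUG1, and the log2 fold change was 0.69 (SE 0.04, edgeR adjusted p = 3.3e-16).

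UNG (chromosome 12, 109097574 to 109110992, plus strand), the main uracil glycosylase of replicating and mitochondrial DNA, had 129, 127 and 126 CPM with the POLK sgRNA, against 91.4, 86.8 and 89.3 CPM with the control sgRNA. That is a rise of 42.7% with no overlap between groups, at a log2 fold change of 0.51 (SE 0.03, edgeR adjusted p = 7.3e-18). MBD4, a glycosylase for G:T mispairs at methylated CpG sites, lies on chromosome 3 and had 30.5, 30.4 and 32.6 CPM with the POLK sgRNA, against 29.1, 29.6 and 30.1 CPM with the control sgRNA. Its groups did not overlap either, but the log2 fold change of 0.07 (SE 0.04) did not pass (edgeR adjusted p = 0.11). The TDG to MBD4 ratio of levels per kb of exon was 1.20 ± 0.104 with the POLK sgRNA and 0.786 ± 0.0387 with the control sgRNA (SD, n = 3 each). Pseudogenes named after UNG, SMUG1 and TDG are annotated and could share reads with them.

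The neighbours of these 3 genes on chromosome 12 were also higher. Of the 169 other tested genes within 5 Mb of the start of SMUG1, 156 were higher and 2 lower with the POLK sgRNA, with a median log2 fold change of 0.61 and quartiles of 0.44 and 0.77. Around UNG 74 of 80 neighbours were higher (median 0.61) and around TDG 42 of 46 (median 0.55), and UNG and TDG shared 26 of these neighbours. When each gene was tested against the median of its neighbours, SMUG1 exceeded it by 0.30 (edgeR adjusted p = 1.1e-08) and TDG by 0.14 (0.0030). UNG turned round in that test and lay below its neighbours by 0.09 on the log2 scale (edgeR adjusted p = 0.0032). This test takes the neighbour median as known without error, and it does not measure the spread among neighbours. SMUG1 lay above 84.0% of its neighbours, TDG above 67.4% and UNG above 32.5%. TDG and UNG were inside the quartiles of their neighbours, 0.46 to 0.77 for TDG and 0.48 to 0.75 for UNG. The part of the neighbourhood in the changes was not tested beyond these values.

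**Figure D2:**
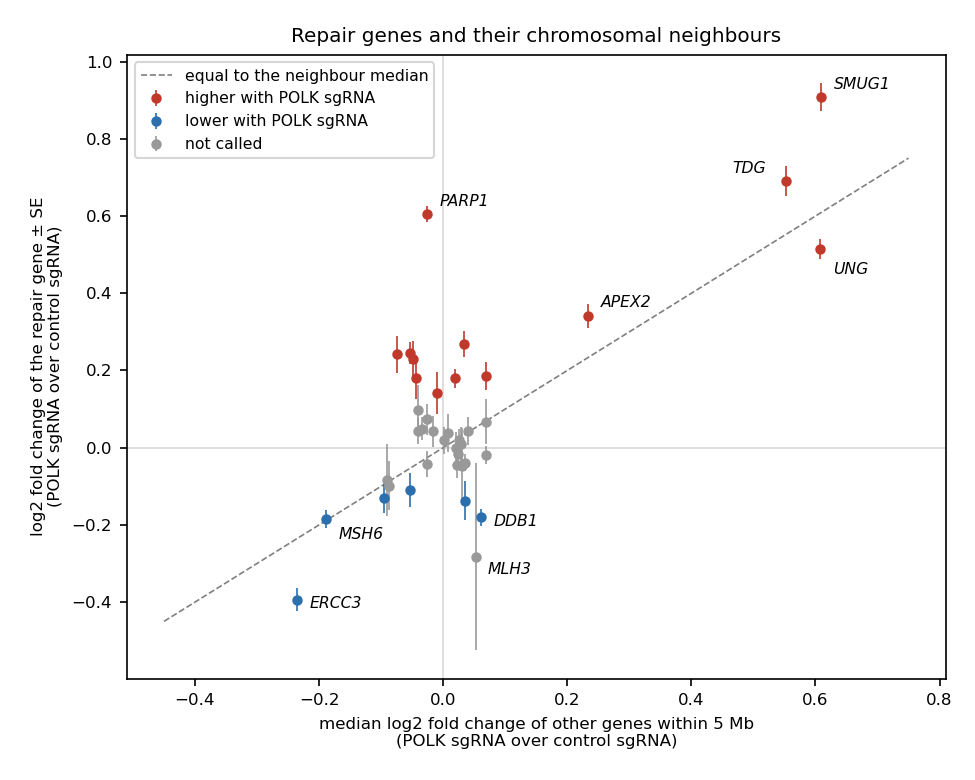
Log2 fold change of each of 40 repair genes with its SE (y axis, POLK sgRNA over control sgRNA) against the median log2 fold change of the other tested genes within 5 Mb (x axis); red, blue and grey points were higher, lower or not called, and the dashed line marks equality. SMUG1, TDG and UNG sit at neighbour medians of 0.55 to 0.61, SMUG1 at 0.30 above the dashed line, TDG at 0.14 above it and UNG just below it, while PARP1 has a log2 fold change of 0.61 at a neighbour median of −0.03.

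Over all members, 21 were called against their neighbours, where 61.2% of the 13898 genes with enough neighbours were. Of these 15 were higher, against 30.6% of all genes, and 6 were lower, against 30.6% of all genes. Of the 19 members called in the plain comparison, 15 kept their call and direction (12 higher and 3 lower). UNG changed direction, and CETN2, ERCC6 and MSH6 were no longer called. The share of all genes that kept their call was not computed, so the 15 cannot be read as an excess. Members whose neighbour median lay above 0.1 were UNG, SMUG1, TDG and APEX2, all of them higher, and those with a median below −0.1 were ERCC3 and MSH6, which were lower. Another 5 members passed only against their neighbours. Their differences on the log2 scale were 0.10 for MBD4, 0.08 for XPC, 0.08 for DDB2, −0.09 for APEX1 and −0.07 for RAD23B. All 5 lay inside the quartiles of their neighbours. MBD4 was above 73.7% of its neighbours, DDB2 above 60%, XPC above 57.8%, and APEX1 and RAD23B each above 34.5%. The share of all genes that passed only in this way was not computed.

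Among the 6 glycosylases for oxidised bases OGG1 and NEIL3 were higher, MUTYH was lower and 3 did not pass. The called share was 50%, against 64.3% of all genes tested. OGG1, which removes 8-oxoguanine, had 24.9, 25.7 and 27.5 CPM with the POLK sgRNA, against 22.0, 21.8 and 22.7 CPM with the control sgRNA. The groups did not overlap, and the log2 fold change was 0.23 (SE 0.04, edgeR adjusted p = 3.2e-05). Exons of CAMK1 or TADA3 on the other strand cover 29.04% of its exon length, and the libraries do not mark strand. NEIL3, a glycosylase for oxidised pyrimidines and hydantoins that also opens interstrand crosslinks, had 16.8, 15.2 and 15.6 CPM with the POLK sgRNA, against 13.96, 14.25 and 13.97 CPM with the control sgRNA. All 3 POLK sgRNA libraries were above the controls (log2 fold change 0.18, SE 0.05, edgeR adjusted p = 0.0037).

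MUTYH, which takes out adenine paired with 8-oxoguanine, had 16.7, 18.5 and 18.7 CPM with the POLK sgRNA, against 19.5, 20.2 and 19.3 CPM with the control sgRNA. It fell by 0.14 on the log2 scale (SE 0.05, edgeR adjusted p = 0.017), with POLK sgRNA library 1 the lowest. The call was lost without POLK sgRNA library 1 (0.16) and without control sgRNA library 2 (0.078). TOE1 exons on the other strand cover 14.1% of its exon length. NTHL1, for oxidised pyrimidines, had 21.7 ± 0.630 CPM with the POLK sgRNA and 21.6 ± 0.815 CPM with the control sgRNA. NEIL2 had 12.98 ± 0.860 and NEIL1 4.81 ± 0.762 CPM with the POLK sgRNA, and with the control sgRNA NEIL2 had 12.4 ± 0.278 and NEIL1 4.96 ± 0.371 CPM (SD, n = 3 each). For these 3 genes the groups overlapped and the adjusted p was 0.32 or above. Exons on the other strand cover 26.4% of the exon length of NEIL1 (MAN2C1) and 16.5% of that of NTHL1 (TSC2). The interval for NTHL1 ran from −0.08 to 0.10 on the log2 scale (95%).

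The pair of genes for alkylated bases was higher, where 32.8% of all genes tested were. MPG, the glycosylase for alkylated adenines, had 60.9, 64.5 and 66.3 CPM with the POLK sgRNA, against 53.8, 52.5 and 52.7 CPM with the control sgRNA (log2 fold change 0.27, SE 0.03, edgeR adjusted p = 1.2e-08). MGMT, which takes the alkyl group off O6-alkylguanine and is known for protecting tumour cells from temozolomide, had 18.8, 19.0 and 19.5 CPM with the POLK sgRNA, against 15.8, 15.8 and 16.8 CPM with the control sgRNA. Neither gene's groups overlapped, and MGMT rose by 18.3% (log2 fold change 0.24, SE 0.05, edgeR adjusted p = 5.6e-05). The 35 neighbours of MGMT on chromosome 10 had a median of −0.07, and those of MPG on chromosome 16 a median of 0.03. Exons of NPRL3 on the other strand cover 27.3% of the exon length of MPG.

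Of the 8 genes that act after the glycosylase, 4 were higher and none was lower (50% called, against 64.3% of all genes tested). PARP1 (chromosome 1, 226360691 to 226408079, minus strand), the sensor of strand breaks that marks them with poly(ADP-ribose), had 664, 659 and 662 CPM with the POLK sgRNA, against 434, 433 and 438 CPM with the control sgRNA. The libraries within each group were nearly alike, and the log2 fold change was 0.61 (SE 0.02, edgeR adjusted p = 1.2e-22). Of its 67 neighbours 16 were higher and 23 lower, and PARP1 lay above 95.5% of them. It exceeded their median by 0.63 (edgeR adjusted p = 4.3e-23 against the neighbours). PARP2, a related break sensor, rose less, to 44.5, 48.0 and 47.6 CPM with the POLK sgRNA, against 40.5, 41.8 and 40.6 CPM with the control sgRNA (log2 fold change 0.19, SE 0.04, edgeR adjusted p = 3.3e-05).

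APEX2, a minor abasic-site endonuclease with strong exonuclease activity, had 67.2, 67.9 and 64.3 CPM with the POLK sgRNA, against 52.2, 53.3 and 51.8 CPM with the control sgRNA (log2 fold change 0.34, SE 0.03, edgeR adjusted p = 2.0e-11). Its 41 neighbours on the X chromosome had a median of 0.23, and APEX2 exceeded it by 0.11 (edgeR adjusted p = 0.0035). APEX2 lay above 68.3% of these neighbours, inside their quartiles of −0.06 and 0.41. APEX1, the main abasic-site endonuclease, had 197, 195 and 196 CPM with the POLK sgRNA, against 194, 200 and 203 CPM with the control sgRNA. These overlapped (log2 fold change −0.02, SE 0.02, edgeR adjusted p = 0.49), and the APEX1 to APEX2 ratio per kb was 5.08 ± 0.157 with the POLK sgRNA and 6.52 ± 0.193 with the control sgRNA (SD, n = 3 each). The gap-filling polymerase gene POLB had 14.3, 14.8 and 14.2 CPM with the POLK sgRNA, against 12.5, 13.4 and 13.2 CPM with the control sgRNA. It rose by a log2 fold change of 0.14 (SE 0.05, edgeR adjusted p = 0.022), a call lost without control sgRNA library 1 (0.11), without POLK sgRNA library 2 (0.077) and with DESeq2 (0.084).

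The remaining genes of this step, the scaffold XRCC1, its partner the ligase LIG3 and APTX, which cleans blocked ends left by failed ligation, did not pass. XRCC1 had 45.8 ± 2.08 CPM with the POLK sgRNA and 44.4 ± 0.912 CPM with the control sgRNA, and APTX had 42.0 ± 1.34 CPM with the POLK sgRNA and 42.5 ± 2.45 CPM with the control sgRNA (SD, n = 3 each). LIG3 had 69.6 ± 0.688 CPM with the POLK sgRNA and 68.7 ± 0.424 CPM with the control sgRNA (SD, n = 3 each), and exons of RFFL or CCT6B on the other strand cover 30.5% of its exon length. XRCC1 passed narrowly without POLK sgRNA library 1 (edgeR adjusted p = 0.049). The XRCC1 to LIG3 ratio per kb overlapped between the groups, at 2.46 ± 0.133 with the POLK sgRNA and 2.41 ± 0.0645 with the control sgRNA (SD, n = 3 each). Over the 19 members of base excision repair as a whole, 10 were higher, 1 was lower and 8 did not pass. That is 57.9% called, against 64.3% of all genes tested, where 32.8% were higher and 31.6% lower. The 10 include UNG, SMUG1 and TDG, whose chromosome 12 neighbours were also higher. Of the 37 repair genes outside chromosome 12, 10 were higher, 6 were lower and 21 did not pass (43.2% called).

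Of the 7 genes that recognise damage in nucleotide excision repair, 3 were lower and none was higher. That is 42.9% called, against 64.3% of all genes tested, where 31.6% were lower. DDB1 (chromosome 11, 61299451 to 61342596, minus strand), the adaptor that ties damage sensors to the CUL4 ubiquitin ligase, had 532, 518 and 511 CPM with the POLK sgRNA, against 579, 589 and 601 CPM with the control sgRNA. All POLK sgRNA libraries were below all controls, a fall of 0.18 on the log2 scale (SE 0.02, edgeR adjusted p = 1.6e-08). Its 177 neighbours had a median of 0.06, and DDB1 lay below it by 0.24 on the log2 scale. DDB2, the ultraviolet damage sensor that binds DDB1, had 76.2, 80.5 and 78.7 CPM with the POLK sgRNA, against 74.5, 76.2 and 76.5 CPM with the control sgRNA. It did not pass (log2 fold change 0.05, SE 0.03, edgeR adjusted p = 0.14), but it did without POLK sgRNA library 1 (0.042) and with library size alone (0.049). The DDB1 to DDB2 ratio per kb was 2.33 ± 0.104 with the POLK sgRNA and 2.73 ± 0.0233 with the control sgRNA (SD, n = 3 each).

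XPC, RAD23B and CETN2 form the sensor of distorted helices across the genome. CETN2 had 30.8, 30.9 and 32.1 CPM with the POLK sgRNA, against 34.2, 33.9 and 34.7 CPM with the control sgRNA. It fell by 0.13 on the log2 scale (SE 0.04, edgeR adjusted p = 0.0027), and its 83 neighbours on the X chromosome had a median of −0.09. RAD23B, which stabilises XPC, had 428 ± 6.92 CPM with the POLK sgRNA and 440 ± 4.81 CPM with the control sgRNA, and XPC had 61.8 ± 1.40 CPM with the POLK sgRNA and 59.9 ± 3.33 CPM with the control sgRNA (SD, n = 3 each). Neither passed (edgeR adjusted p = 0.12 for RAD23B and 0.28 for XPC). XPC passed without control sgRNA library 3 (0.038).

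ERCC6 and ERCC8 encode CSB and CSA, which act where RNA polymerase stalls at damage. ERCC6 had 21.9, 20.8 and 20.7 CPM with the POLK sgRNA, against 22.2, 23.0 and 23.3 CPM with the control sgRNA. It fell by 0.11 on the log2 scale (SE 0.04, edgeR adjusted p = 0.030). The call was lost without POLK sgRNA library 2 (0.097) or 3 (0.098), without control sgRNA library 2 (0.076) or 3 (0.083), with library size alone (0.064) and with DESeq2 (0.068). ERCC8 had 10.9 ± 0.357 CPM with the POLK sgRNA and 11.7 ± 1.04 CPM with the control sgRNA (SD, n = 3 each), did not pass (0.18), and passed without control sgRNA library 3 (0.029).

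Of the 7 genes that open the helix and cut the strand, ERCC3 was lower, ERCC1 was higher and 5 did not pass. The called share was 28.6%, against 64.3% of all genes tested. ERCC3 (chromosome 2, 127257290 to 127294176, minus strand) encodes XPB, a translocase subunit of TFIIH, the complex that opens DNA in repair and at promoters. It had 70.1, 67.9 and 66.7 CPM with the POLK sgRNA, against 87.9, 89.3 and 91.96 CPM with the control sgRNA. This was the largest fall among the called members, 0.39 on the log2 scale (SE 0.03, edgeR adjusted p = 9.3e-14). Of its 27 neighbours 19 were lower, with a median of −0.24, and ERCC3 lay below that median by 0.16 (edgeR adjusted p = 2.0e-05).

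ERCC2 and GTF2H1, which also encode TFIIH subunits, differed less. ERCC2, the XPD helicase, had 50.9 ± 0.645 CPM with the POLK sgRNA and 52.5 ± 0.496 CPM with the control sgRNA, and GTF2H1 had 49.7 ± 1.62 CPM with the POLK sgRNA and 49.1 ± 1.93 CPM with the control sgRNA (SD, n = 3 each). Neither passed (edgeR adjusted p = 0.21 for ERCC2 and 0.66 for GTF2H1). The ERCC2 to ERCC3 ratio of levels per kb was 0.934, 0.984 and 1.01 with the POLK sgRNA, against 0.773, 0.775 and 0.745 with the control sgRNA. That ratio did not overlap between the groups, while ERCC2 to GTF2H1 did.

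ERCC1, which forms the nuclease that cuts on the 5′ side together with ERCC4 (XPF), had 214, 212 and 222 CPM with the POLK sgRNA, against 191, 187 and 194 CPM with the control sgRNA. All POLK sgRNA libraries were above the controls (log2 fold change 0.18, SE 0.02, edgeR adjusted p = 7.8e-08). Exons of CD3EAP on the other strand cover 28.6% of its exon length. ERCC4 had 28.9 ± 0.647 CPM with the POLK sgRNA and 28.1 ± 0.905 CPM with the control sgRNA (SD, n = 3 each) and did not pass (0.37). The damage-verifying scaffold XPA had 14.5 ± 0.830 CPM with the POLK sgRNA and 13.6 ± 1.44 CPM with the control sgRNA (SD, n = 3 each). It did not pass (0.19), and passed without control sgRNA library 3 (0.028). ERCC5, the XPG nuclease that cuts on the 3′ side, had 222, 218 and 213 counts with the POLK sgRNA, against 181, 262 and 217 counts with the control sgRNA. At 4.30 ± 0.389 CPM with the POLK sgRNA and 4.51 ± 0.287 CPM with the control sgRNA (SD, n = 3 each) it did not pass (0.45). Exons of BIVM on the same strand cover 19.1% of its exon length. With BIVM-ERCC5, a same-strand gene of GENCODE 29 that is absent from the counts, 63.25% is shared. Reads of ERCC5 may therefore be divided with these genes or left uncounted.

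Mismatch repair had 1 member higher, 1 lower and 4 that did not pass (33.3% called, against 64.3% of all genes tested). MSH6 (chromosome 2, 47695530 to 47810101, plus strand), the subunit that reads single mismatches, had 204, 201 and 197 CPM with the POLK sgRNA, against 230.3, 226 and 227 CPM with the control sgRNA. It fell by 0.18 on the log2 scale (SE 0.02, edgeR adjusted p = 2.2e-08) with no overlap. Of its 30 neighbours 18 were lower, with a median of −0.19, and MSH6 differed from that median by 0.0046 (edgeR adjusted p = 0.88). Exons of FBXO11 on the other strand cover 16.2% of its exon length. Its counterpart for longer loops, MSH3, had 43.8, 44.3 and 43.7 CPM with the POLK sgRNA, against 46.1, 45.5 and 44.4 CPM with the control sgRNA, and did not pass (0.26). The MSH6 to MSH3 ratio per kb was 1.95 ± 0.0333 with the POLK sgRNA and 2.15 ± 0.0323 with the control sgRNA (SD, n = 3 each).

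EXO1, the exonuclease that removes the faulty strand and also acts on broken ends, had 79.7, 82.0 and 81.8 CPM with the POLK sgRNA, against 67.8, 69.6 and 67.9 CPM with the control sgRNA. It rose by 18.6% (log2 fold change 0.24, SE 0.03, edgeR adjusted p = 4.5e-09), and its 23 neighbours on chromosome 1 had a median of −0.05. The MutL homologue PMS2 had 28.9, 28.8 and 29.9 CPM with the POLK sgRNA, against 29.7, 28.7 and 29.2 CPM with the control sgRNA. Its log2 fold change had a 95% interval of −0.08 to 0.08. There are 11 annotated pseudogenes named after PMS2, so its level is uncertain. PMS1 had 16.8 ± 0.242 CPM with the POLK sgRNA and 16.3 ± 0.460 CPM with the control sgRNA (SD, n = 3 each), with an edgeR adjusted p of 0.51. MLH3 had the fewest counts of all members, at 30, 27 and 19 with the POLK sgRNA, against 25, 30 and 33 with the control sgRNA. Its log2 fold change of −0.28 had a 95% interval of −0.78 to 0.21, so a change of that size was not detectable at this depth.

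Levels of different genes were compared per kb of merged exon length (GENCODE 29), which joins the exons of all annotated transcripts of a gene. This length can exceed that of any single transcript, so the order of genes depends on it. It was 1886 bases for APEX1, 7169 for PARP1 and 13950 for DDB1. In CPM not divided by length, the highest means were PARP1 at 662 with the POLK sgRNA and DDB1 at 590 with the control sgRNA. APEX1 had the highest level by this measure, at 104 CPM per kb with the POLK sgRNA and 105 CPM per kb with the control sgRNA. RAD23B followed at 92.7 CPM per kb with the POLK sgRNA and 95.2 CPM per kb with the control sgRNA, and next came PARP1 at 92.3 CPM per kb with the POLK sgRNA and 60.7 CPM per kb with the control sgRNA. The annotation names 3 pseudogenes after RAD23B and 2 after PARP1, which could share reads with them. At the other end MLH3 stood at 0.0594 CPM per kb with the POLK sgRNA and 0.0725 CPM per kb with the control sgRNA. Above it came ERCC5 at 0.521, NEIL1 at 0.693 and ERCC6 at 1.26 CPM per kb with the POLK sgRNA, and with the control sgRNA ERCC5 was at 0.548, NEIL1 at 0.715 and ERCC6 at 1.37 CPM per kb. Same-strand genes share 63.25% of the exon length of ERCC5, so its place is uncertain. Among the uracil and thymine glycosylases UNG was at 49.6 CPM per kb with the POLK sgRNA and 34.7 with the control sgRNA. TDG was at 11.2 and SMUG1 at 9.60 CPM per kb with the POLK sgRNA, and with the control sgRNA TDG was at 6.93 and SMUG1 at 5.11 CPM per kb. MBD4 was at 9.29 CPM per kb with the POLK sgRNA and 8.82 with the control sgRNA. By this measure it ranked above TDG and SMUG1 in the control cells and below both in the POLK sgRNA cells. With the POLK sgRNA it was close to SMUG1, and such an order depends on the exon lengths used (3356 bases for MBD4 and 6027 for SMUG1).

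**Figure D3:**
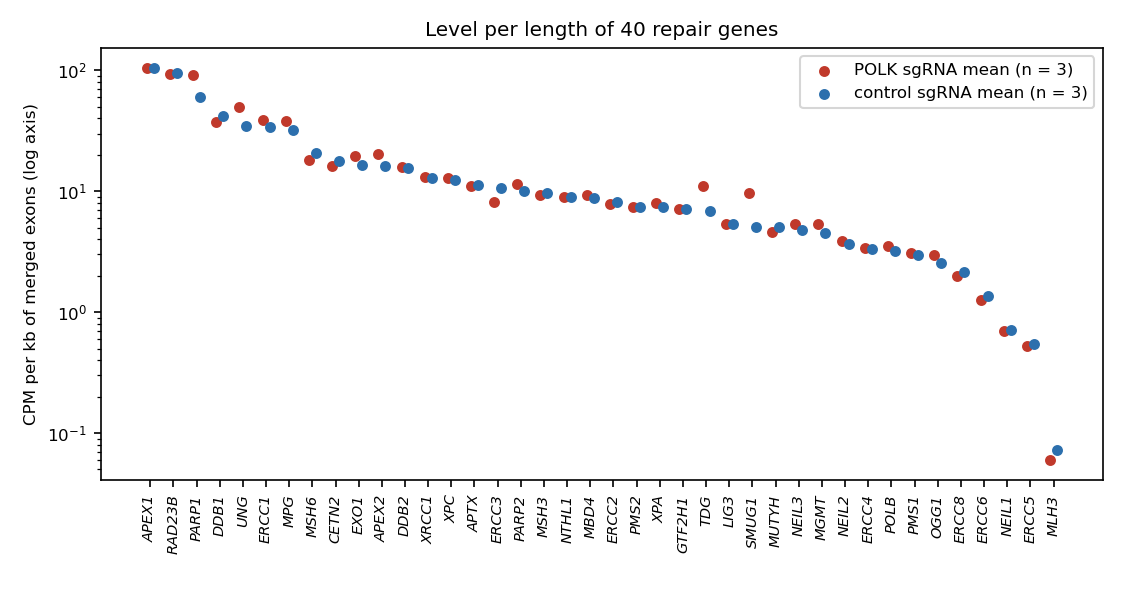
Mean level of 40 repair genes per kb of merged exon length (y axis, CPM per kb, log axis), ordered by the control sgRNA mean; red points are POLK sgRNA means and blue points control sgRNA means (n = 3 each). The genes range from APEX1 (104 CPM per kb with the POLK sgRNA, 105 with the control sgRNA) to MLH3 (0.0594 with the POLK sgRNA, 0.0725 with the control sgRNA), and SMUG1 and TDG show the widest gaps between the groups.

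Ratios of partner genes were set out for 16 pairs, and in 9 of them the groups did not overlap. Single genes whose groups do not overlap make up 67.7% of all genes tested. No such share was computed for ratios, so that count cannot be read as an excess. The PARP1 to PARP2 ratio per kb was 8.53, 7.85 and 7.95 with the POLK sgRNA, against 6.12, 5.92 and 6.16 with the control sgRNA. The SMUG1 to UNG ratio was 0.193, 0.188 and 0.200 with the POLK sgRNA, against 0.138, 0.152 and 0.152 with the control sgRNA. These ratios were both higher in the POLK sgRNA libraries, and the ratios of APEX1 to APEX2, DDB1 to DDB2, CETN2 to XPC and MSH6 to MSH3 were lower. The ratios are given as descriptions and were not tested.

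**Figure D4:**
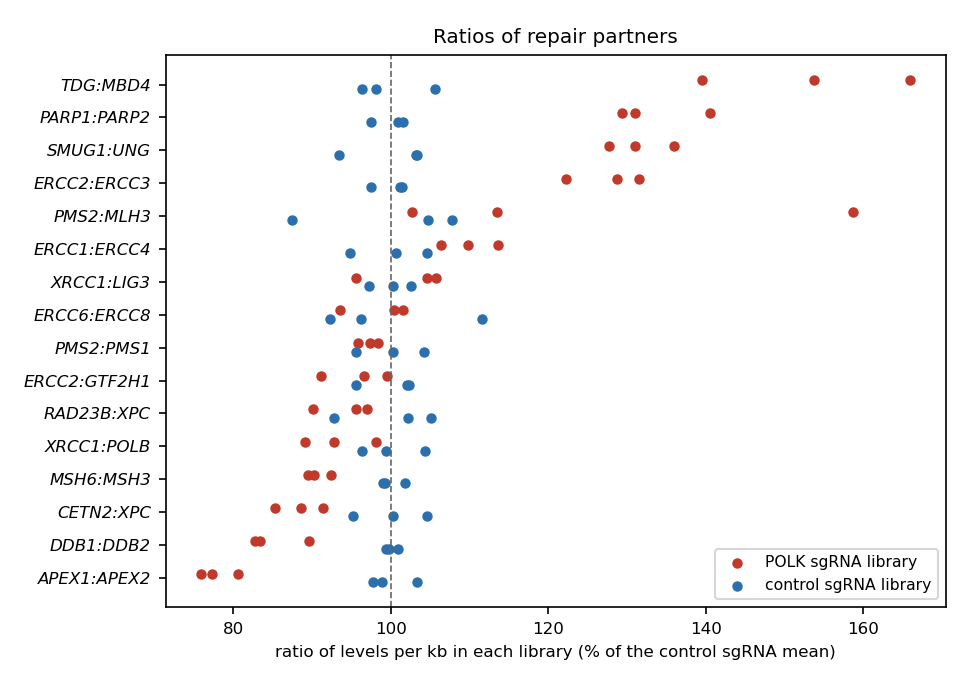
Ratio of levels per kb for 16 pairs of repair partners in every library (x axis, percentage of the mean ratio in the control sgRNA libraries); red points are POLK sgRNA libraries and blue points control sgRNA libraries. The groups are apart for 9 pairs, with TDG to MBD4 (1.20 with the POLK sgRNA, 0.786 with the control sgRNA) furthest to the right and APEX1 to APEX2 (5.08 with the POLK sgRNA, 6.52 with the control sgRNA) furthest to the left.

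Other genes of the same pathways were called in both directions, at shares near the 64.3% of all genes. Of 18 further base excision repair genes 17 were tested, 9 were higher and 3 lower (70.6% called). PCNA, the replication clamp, had a log2 fold change of 0.48 among chromosome 20 neighbours with a median of 0.60, and the polymerase gene POLE 0.57 among chromosome 12 neighbours with 0.52. Of 25 further nucleotide excision repair genes 24 were tested, 7 were higher and 7 lower (58.3% called). GTF2H3, a TFIIH subunit gene, and RFC5, of the clamp loader, both rose and both lie on chromosome 12. The log2 fold change of GTF2H3 was 0.62 (edgeR adjusted p = 1.4e-19, neighbour median 0.54) and that of RFC5 was 0.71 (7.9e-19, neighbour median 0.63).

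Of 17 further genes of mismatch repair and direct reversal 16 were tested, 5 were higher and 4 lower (56.25% called), with PCNA again among the 3 of smallest p. ALKBH2 (chromosome 12, 109088188 to 109093631), which oxidises alkyl groups off bases and lies next to UNG, had 49.8, 50.2 and 47.5 CPM with the POLK sgRNA, against 28.8, 28.3 and 30.7 CPM with the control sgRNA. Its log2 fold change was 0.75 (SE 0.04, edgeR adjusted p = 3.3e-18), among neighbours with a median of 0.61. HMGB1, a chromatin protein that assists several repair steps, fell by 0.23 on the log2 scale (edgeR adjusted p = 2.4e-11).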

How the data were processed

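The authors deposited raw counts per gene and library, not normalized. The submitters' processing notes list Trimmomatic, FastQC, STAR, DESeq2 and the GRCh38 build. The sources used here do not give tool versions, the counting tool or the annotation. Libraries were made with the TruSeq RNA V2 kit, per the labels' protocols, which does not mark strand. Besides the overlaps given above, exons of other genes cover 30.4% of the exon length of XPC and 25.7% of ERCC4, on the other strand. They cover 30.0% of ERCC8 and 24.0% of XRCC1, on both strands. Columns were matched to samples by name.

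In R 4.3.3, 13930 of 16934 genes (82.3%) passed filterByExpr at a minimum count of 10 and a minimum total of 15. After TMM scaling the groups were compared by the robust quasi-likelihood test of edgeR 4.0.16, two-sided and without covariates, at a Benjamini-Hochberg adjusted p of 0.05 over all genes tested. Each SE was obtained by dividing the size of the log2 change by the root of its F value. CPM use TMM-scaled library sizes, and the biological coefficient of variation was 2.42%. Tested on simulated counts for this comparison (13930 genes), 32% of genes changed 1.1-fold, 82% of those changed 1.25-fold, 90% at 1.5-fold and 96% at 2-fold were recovered, and 6 of 13550 unchanged genes were called. A chromosome window given a shared shift was left out of the unchanged genes. Of 80 genes in its centre 67 were called in the plain test and 0 against neighbours. The simulation gave every gene the common spread of these libraries, so it holds no added spread between cultures.

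A member was also set against the median of other tested genes within 5 Mb (GENCODE 29 starts) by an offset in the same fit, given at least 5 neighbours. That test sets a gene against library spread only, and not against the spread among its neighbours. All 40 members, POLK and, in each list of further genes, those among the 3 of smallest p are named, except items not reported here. The members, lists, partner pairs and tests were chosen with earlier results of these data known, so their counts are descriptions. Alternatives were library size alone, DESeq2 1.42.0 size factors, a mean of 1 CPM, no filter, the replicate number as a block, DESeq2, limma-voom (limma 3.58.1), each library left out, the neighbour offset and edgeR's glmTreat at 1.25-fold.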

Additional observations from a re-analysis of the deposited data

How the results depend on the processing

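The counts of 13 repair genes higher and 6 lower with the POLK sgRNA ran from 12 to 14 and from 5 to 6 across other scalings, filters and tools (library size alone, DESeq2 size factors, a mean of 1 CPM, no filter, DESeq2 and limma-voom). Leaving out 1 library at a time gave 12 to 15 higher and 4 to 6 lower. Against the minimum fold of glmTreat, 4 members were higher (SMUG1, TDG, UNG and PARP1) and 1 was lower (ERCC3), where 11.9% and 8.79% of all genes passed. Set against neighbours within 5 Mb, UNG was at −0.093 and MSH6 at 0.0046 on the log2 scale. With the replicate number as a block, 13 members were higher and 6 lower, no member call changed, and the log2 fold change of POLK was −0.36. The deviations of same-numbered libraries correlated at −0.056, −0.076 and −0.149, and those of differently numbered libraries at −0.045 to 0.109. These values showed no pairing by number. Deviations from a mean of 3 libraries are tied to each other, so they cannot decide on a weak shared effect. MLH3 was left out by the filter on a mean of 1 CPM. With 19 to 33 counts a library, depth limits the statement on MLH3.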
